A study of Mus musculus with 21 samples.

Results

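The 39 protein-coding genes of the mouse Hox clusters were followed through 7 groups of sorted embryoid body cells. They were taken by symbol, as every gene named Hoxa, Hoxb, Hoxc or Hoxd followed by a number, out of 55487 gene IDs in the count files. Hoxa holds 11 of them on chromosome 6, Hoxb 10 on chromosome 11, Hoxc 9 on chromosome 15 and Hoxd 9 on chromosome 2.

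Hox genes encode homeodomain transcription factors that set position along the body axis. The genes of a cluster carry paralog numbers in their order on the chromosome, and those of low number are usually switched on first and in more anterior tissue. In gastrulation they come on in the primitive streak and the mesoderm that leaves it. Cdx factors act upstream of many central Hox genes, and Pbx and Meis proteins bind DNA together with Hox proteins.

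RNA came from day 4 embryoid bodies, aggregates in which mouse embryonic stem cells differentiate, sorted on the surface receptors PDGFRalpha and FLK1. Cells with both receptors are called DP, and cells with FLK1 and without PDGFRalpha are called SP. A reporter line that carries both T-GFP and Etv2-tdTomato (TGET) gave 4 groups: DP Etv2-positive, DP Etv2-negative, SP Etv2-positive and SP Etv2-negative cells, split by tdTomato. Etv2 is an ETS transcription factor needed for endothelium and blood. A second set of libraries held SP cells of the iETV2 line, whose Etv2 transgene was induced on day 2.5 with 2 µg/ml doxycycline, SP cells of the wildtype (WT) line A2lox.Cre, and DP cells of that WT line. The labels name doxycycline for iETV2 alone, so the line, the drug and Etv2 cannot be told apart in that comparison. Every group had 3 libraries, 21 in all, and the labels do not say whether these came from separate cultures, so p-values measure the spread between these libraries, which may be technical. Each reporter group comes from a single line, and tdTomato marks cells that have used the Etv2 locus, with the protein's own lifetime added.

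Counts in genes came to 25045553 to 32777143 per library in the reporter set and 22406153 to 28184904 in the second set. A floor of 3 counts was worth 0.0904 to 0.118 CPM (counts scaled to the TMM-adjusted size of their library) in the reporter libraries and 0.102 to 0.135 CPM in the others. The sort was visible in the RNA. Etv2 averaged 58.4 ± 10.3 CPM in DP Etv2-positive and 20.2 ± 2.61 CPM in DP Etv2-negative cells, and 239 ± 10.2 CPM in iETV2 SP and 93.6 ± 22.4 CPM in WT SP cells (SD, n = 3 each). Etv2-negative cells therefore still held Etv2 RNA. Pdgfra averaged 51.7 ± 9.22 CPM in SP Etv2-negative and 253 ± 34.9 CPM in DP Etv2-negative cells (SD, n = 3 each). Within DP the receptor RNAs also differed. In DP Etv2-positive over DP Etv2-negative cells Etv2 was higher, while Pdgfra and the FLK1 gene Kdr were lower (edgeR adjusted p below 0.05). Of all genes tested there, 16% were higher and 14.7% lower. These are bulk samples, in which fewer cells with a transcript and less of it per cell cannot be told apart.

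The Hox genes were expressed at low level. Their 39 genes together took 56.1 to 98 CPM in the reporter libraries and 10.7 to 66.4 CPM in the second set. In the reporter set 20 genes passed the low-count filter and were tested, 14 were not tested but had more than 3 counts in some library, 3 (Hoxa6, Hoxc11 and Hoxd12) had at most 3 counts in every library, and Hoxb13 and Hoxc12 were at 0 in all 12. In the second set 15 genes were tested and 17 others had more than 3 counts in some library. Hoxa6, Hoxb13, Hoxc4 and Hoxc5 reached at most 3 counts there, and Hoxc11, Hoxc12 and Hoxd12 were at 0 in all 9 libraries. The tested genes of the reporter set were 7 of 11 in Hoxa, 9 of 10 in Hoxb, 0 of 9 in Hoxc and 4 of 9 in Hoxd.

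The Hoxc cluster was close to silent in every library. Its 9 genes summed to means of 1.00 ± 0.450 CPM in DP Etv2-positive and 0.462 ± 0.216 CPM in DP Etv2-negative cells, and of 0.338 ± 0.410 CPM in iETV2 SP and 0.533 ± 0.189 CPM in WT SP cells (SD, n = 3 each). Hoxc4, its first gene, had 2, 1 and 6 counts in DP Etv2-positive cells and 1, 0 and 0 counts in DP Etv2-negative cells. A count so near the floor cannot show a difference at this depth.

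Hoxb held most of the Hox RNA. It took 70.2 to 77.9% of the Hox CPM in DP Etv2-positive libraries and 74.3 to 82.3% in DP Etv2-negative libraries. Its share was lowest in the iETV2 SP libraries, at 47.4 to 48.6%, against 65.3 to 67.6% in the WT SP libraries.

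**Figure D1:**
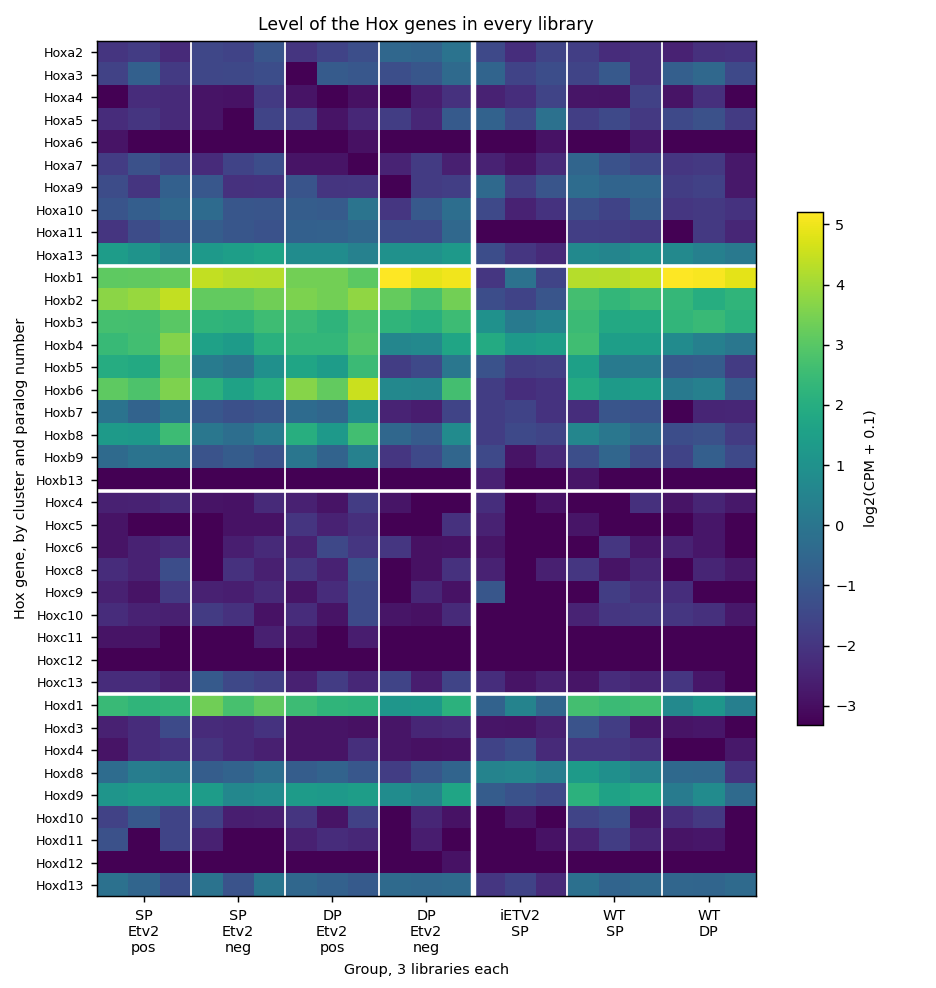
Level of 38 Hox genes (rows, by cluster and paralog number) in each of the 21 libraries (columns, 3 per group), as log2(CPM + 0.1). The first 4 groups are the reporter set and the last 3 the second set. Hoxc rows are dark throughout, Hoxb1 is brightest in DP Etv2-negative and WT DP cells, and most of the anterior and Hoxb rows darken in iETV2 SP cells.

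Levels of different genes were compared per kilobase of exon. Hoxb1, among the first Hox genes on in the primitive streak, stood highest of the 39 in DP Etv2-negative cells, at 14.3 ± 1.55 CPM per kb, and in WT DP cells, at 14.4 ± 1.83 CPM per kb. It also led in SP Etv2-negative cells (8.63 ± 0.534 CPM per kb) and in WT SP cells (8.56 ± 0.578 CPM per kb). Next in DP Etv2-negative cells came Hoxb2 at 2.47 ± 0.568 CPM per kb, below Hoxb1 by more than their spread. In DP Etv2-positive cells Hoxb6 led at 7.55 ± 3.79 CPM per kb and Hoxb1 followed at 4.16 ± 0.525 CPM per kb, which is within the spread of Hoxb6. In SP Etv2-positive cells Hoxb2 (4.69 ± 1.24 CPM per kb), Hoxb6 (4.59 ± 1.27 CPM per kb) and Hoxb1 (3.74 ± 0.139 CPM per kb) lay within each other's spread. In iETV2 SP cells Hoxb4 led at 1.10 ± 0.279 CPM per kb (all SD, n = 3).

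Promoter sequences were at hand for 22 of the 39 genes, from RefSeq on GRCm38.p6. Within Hoxb these covered only Hoxb1, Hoxb4 and Hoxb8, so Hoxb5, Hoxb6, Hoxb7 and the other Hoxb genes were not searched. The sequences of Hoxb1, Hoxb4 and Hoxb8 are shown because Hoxb1 went the opposite way to Hoxb4 and Hoxb8 with the Etv2 reporter. Each is the 250 bases before the gene's start, on the plus strand: chr11:96365508-96365757 for Hoxb1, chr11:96318017-96318266 for Hoxb4 and chr11:96281655-96281904 for Hoxb8. Capitals mark matches to a Hox-Pbx motif (TGATNNAT) or a Cdx motif (TTTATNG), searched on both strands.
Hoxb1: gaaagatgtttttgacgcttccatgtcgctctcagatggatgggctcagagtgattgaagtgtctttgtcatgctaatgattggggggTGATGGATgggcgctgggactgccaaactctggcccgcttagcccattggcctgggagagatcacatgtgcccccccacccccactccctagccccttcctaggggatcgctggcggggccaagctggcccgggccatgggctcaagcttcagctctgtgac
Hoxb4: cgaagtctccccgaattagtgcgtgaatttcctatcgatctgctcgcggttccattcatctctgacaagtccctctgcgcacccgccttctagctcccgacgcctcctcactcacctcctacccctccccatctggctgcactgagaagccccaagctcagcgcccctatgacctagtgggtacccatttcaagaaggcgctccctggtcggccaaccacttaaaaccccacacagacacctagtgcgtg
Hoxb8: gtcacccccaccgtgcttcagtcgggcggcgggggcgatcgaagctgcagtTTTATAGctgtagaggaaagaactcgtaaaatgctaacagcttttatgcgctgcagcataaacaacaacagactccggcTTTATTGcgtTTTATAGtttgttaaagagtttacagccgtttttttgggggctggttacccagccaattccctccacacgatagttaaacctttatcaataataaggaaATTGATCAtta
The Hoxb1 window holds a Hox-Pbx match that begins 162 bases before the start. The Hoxb8 window holds 3 Cdx matches, which begin 199, 120 and 110 bases before the start, and a Hox-Pbx match on the other strand at 11 bases. Neither motif is in the Hoxb4 window. The Hox-Pbx motif was in the windows of 4 of the 22 genes and in 7.68% of all 32851 promoters of that table, and the Cdx motif in 2 of 22 and in 9.81%. An ETS motif (ACCGGAAG) was in 0 of 22 and in 1.72% of all, and its shorter core (CCGGAA) was in 1, Hoxa10, and in 12% of all. A match of letters is a description and does not show binding.

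The first comparison asks how Hox RNA differs between cells positive and negative for the Etv2 reporter's tdTomato, within the DP gate. In DP Etv2-positive cells the central Hoxb genes were higher and Hoxb1 was lower than in DP Etv2-negative cells. Of the 20 tested members 8 were called higher, where the background was 16% of all 17690 genes tested, and 2 were called lower, against 14.7% of all. A call means an adjusted p below 0.05 in edgeR's quasi-likelihood test. The median log2 fold change was 0.47 over the tested members and 0.00 over all genes. Members were kept only if high enough in some of the reporter groups, such as Hoxb7 with 2 to 7 counts in DP Etv2-negative cells. In this and the other reporter comparisons, counts and medians of tested members therefore say nothing of the 19 others. By position, 5 of 6 tested central genes (paralogs 4 to 8) were higher and 0 lower, 2 of 7 anterior genes (paralogs 1 to 3) were higher and 2 lower, and 1 of 7 posterior genes (paralogs 9 to 13) was higher. The 5 central genes were all in Hoxb, and the other tested central gene, Hoxd8, was not called. By cluster, 6 of 9 tested Hoxb genes were higher and 1 lower, 1 of 7 in Hoxa was higher and 1 lower, and 1 of 4 in Hoxd was higher. Position and cluster cannot be told apart here.

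Hoxb1 had 281, 277 and 266 counts in DP Etv2-positive cells, against 940, 985 and 974 in DP Etv2-negative cells. The groups lay far apart, and the libraries of each were close to one another. Its log2 fold change was -1.78 ± 0.11 (SE), a 3.43-fold lower level, at an edgeR adjusted p of 4.70e-07. Hoxb1 made up 17.8 ± 6.08% of the Hoxb CPM in DP Etv2-positive and 62.6 ± 8.24% in DP Etv2-negative cells (SD, n = 3 each).

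Hoxb5, a central gene that acts in trunk patterning, had 86, 68 and 177 counts in DP Etv2-positive cells and 5, 9 and 28 in DP Etv2-negative cells. Every positive library was above every negative one, and replicate 3 was highest in both groups. Its log2 fold change was 2.98 ± 0.56, at an adjusted p of 0.00138 in edgeR. Hoxb6, known as a marker of early lateral plate mesoderm, had 340, 235 and 747 counts in DP Etv2-positive and 38, 47 and 185 in DP Etv2-negative cells. Again replicate 3 of each group stood above the other libraries of that group, without overlap between groups. The log2 fold change of Hoxb6 was 2.28 ± 0.48 (edgeR adjusted p = 0.00313).

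Hoxb8, which is used along the trunk and in blood progenitors, had 108, 62 and 198 counts in DP Etv2-positive and 16, 15 and 49 in DP Etv2-negative cells. That came to a log2 fold change of 2.20 ± 0.49 (edgeR adjusted p = 0.00429). Hoxb7 was near the floor in DP Etv2-negative cells, with 2, 2 and 7 counts, against 19, 16 and 54 in DP Etv2-positive cells. All 3 positive libraries were above all 3 negative ones, and the log2 fold change was 2.98 ± 0.53 (edgeR adjusted p = 0.000954).

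Hoxb4, which expands blood progenitors when forced on in embryonic stem cells, had 134, 131 and 239 counts in DP Etv2-positive and 36, 50 and 93 in DP Etv2-negative cells. The highest negative library lay below the lowest positive one, and the log2 fold change was 1.51 ± 0.37 (edgeR adjusted p = 0.00752). Hoxb9, the posterior neighbour of Hoxb8, had 25, 15 and 40 counts in DP Etv2-positive and 4, 9 and 18 in DP Etv2-negative cells. Its groups overlapped, since replicate 3 of the negative cells exceeded replicate 2 of the positive ones. Its log2 fold change of 1.38 ± 0.40 was called at an edgeR adjusted p of 0.0179, which was as high as 0.0889 with a library left out and was lost without DP Etv2-negative replicate 1 or 2, or DP Etv2-positive replicate 3.

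The first gene of Hoxd was higher in DP Etv2-positive cells by less. Hoxd1 had 155, 126 and 145 counts in DP Etv2-positive and 54, 74 and 129 in DP Etv2-negative cells, a log2 fold change of 0.77 ± 0.24 (edgeR adjusted p = 0.0293, and up to 0.119 without 1 library). Its call was lost without DP Etv2-negative replicate 1 or 2, or DP Etv2-positive replicate 1. Hoxa2, a low gene with 4 to 10 counts in DP Etv2-positive and 16 to 25 in DP Etv2-negative libraries, was lower by a log2 fold change of -1.54 ± 0.33 (edgeR adjusted p = 0.00352).

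Hoxb2 had 312, 275 and 445 counts in DP Etv2-positive and 228, 216 and 310 in DP Etv2-negative cells, and was not called, with a log2 fold change of 0.47 ± 0.20 (edgeR adjusted p = 0.0900). Same-number libraries of this comparison pair, but a block of replicate number was fitted over all 12 reporter libraries. Across the gates the lowest same-number correlation was 0.0962 in Etv2-negative and 0.0767 in Etv2-positive cells, short of the 0.1 set for pairing. Different-number correlations were lower still, reaching 0.0502 and 0.0662. With that block Hoxb2 was called at an edgeR adjusted p of 0.00906, and the members called came to 9 higher and 2 lower. The other 9 tested members had log2 fold changes of -0.67 (Hoxa3) to 0.70 (Hoxa9) and were not called. Without DP Etv2-negative replicate 3, which had the highest counts of its group for most Hoxb genes, Hoxb2 and Hoxd9 were called (edgeR adjusted p down to 0.0422), and Hoxb2 was also called without SP Etv2-positive replicate 3. Leaving out that DP Etv2-negative library raised the log2 fold change to 3.96 for Hoxb5, 3.36 for Hoxb6, 3.81 for Hoxb7, 2.96 for Hoxb8 and 2.04 for Hoxb9. Without DP Etv2-positive replicate 3 that of Hoxb7 was 2.34. Reads of Hoxb3 and Hoxb2 are less certain than those of the other Hoxb genes: 52.9% of the exon bases of Hoxb3 and 27.3% of those of Hoxb2 lie opposite the antisense gene Hoxb3os, and whether the counting used strand is not given in the sources used here.

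**Figure D2:**
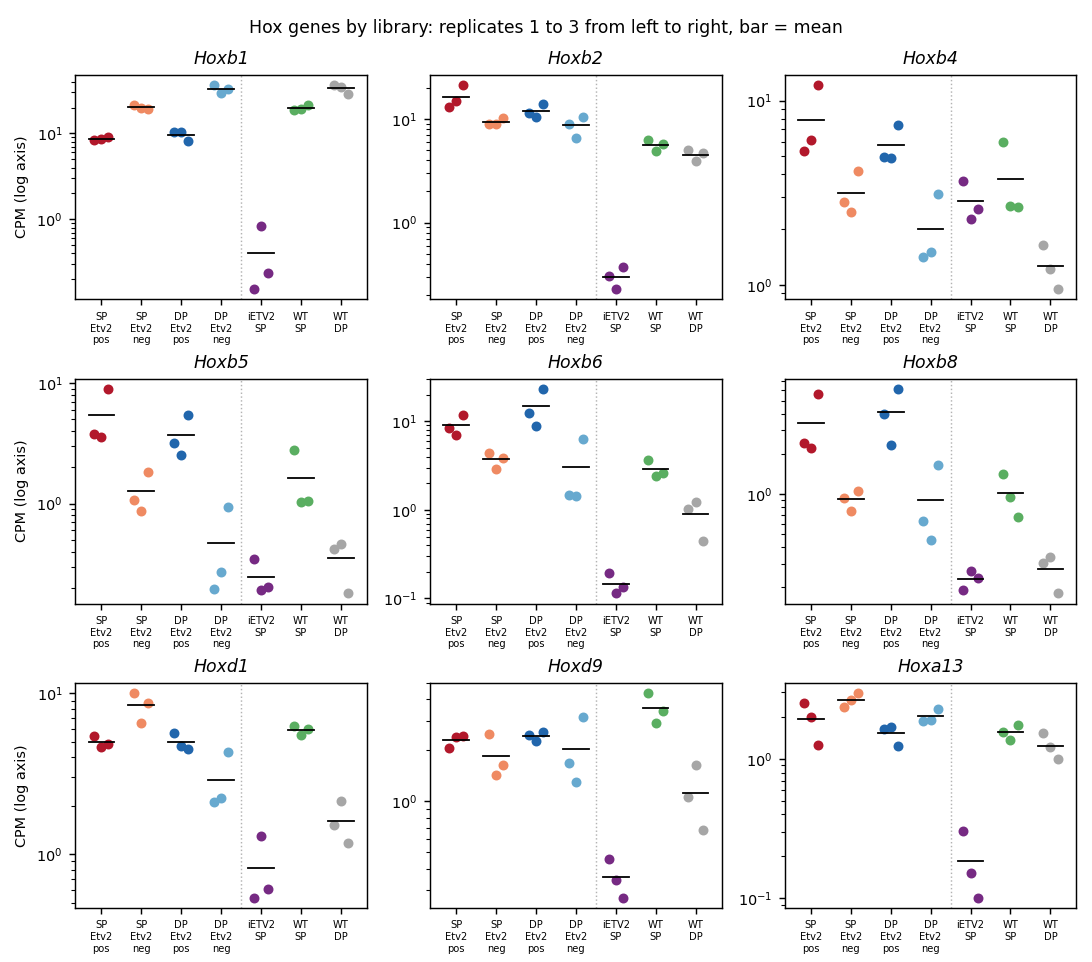
CPM on a log axis in every library for 9 Hox genes, with dots for replicates 1 to 3 from left to right in each group and a bar at the mean. The dotted line parts the reporter set from the second set. Hoxb1 is lower in both Etv2-positive groups than in the Etv2-negative ones, while Hoxb4, Hoxb5, Hoxb6 and Hoxb8 are higher there, with replicate 3 on top for Hoxb4, Hoxb5 and Hoxb8 in all 4 reporter groups.

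The same question was asked in the SP gate. Of 20 tested members 4 were called higher in SP Etv2-positive than in SP Etv2-negative cells, where 13.1% of all genes were, and 2 were called lower, where 12.4% were. The members' median log2 fold change was 0.39, and that of all genes was -0.01. By position, 3 of 6 central genes were higher, 1 of 7 anterior genes was higher and 2 lower, and 0 of 7 posterior genes were called. The 3 central genes were again in Hoxb, where 4 of 9 tested genes were higher and 1 lower. In Hoxa 0 of 7 were called, and in Hoxd 1 of 4 was lower.

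Hoxb1 had 227, 234 and 263 counts in SP Etv2-positive cells and 598, 602 and 560 in SP Etv2-negative cells. Libraries of a group were again close to each other and the groups well apart, with a log2 fold change of -1.21 ± 0.11 (edgeR adjusted p = 1.99e-05). Hoxb5 had 102, 96 and 261 counts in SP Etv2-positive and 30, 27 and 54 in SP Etv2-negative cells. Its log2 fold change was 2.10 ± 0.47 (edgeR adjusted p = 0.00649). Hoxb8 had 66, 60 and 164 counts in SP Etv2-positive and 26, 23 and 31 in SP Etv2-negative cells, and a log2 fold change of 1.91 ± 0.49 (edgeR adjusted p = 0.0133). In both genes replicate 3 of the positive cells had well over the counts of replicates 1 and 2.

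Hoxb4 had 144, 165 and 356 counts in SP Etv2-positive and 79, 76 and 121 in SP Etv2-negative cells, with a log2 fold change of 1.33 ± 0.35 (edgeR adjusted p = 0.0142). Hoxb2, which patterns the hindbrain next to Hoxb1, had 356, 397 and 621 counts in SP Etv2-positive and 247, 273 and 296 in SP Etv2-negative cells, and a log2 fold change of 0.82 ± 0.19 (edgeR adjusted p = 0.00814). Neither gene overlapped between the groups. Hoxd1 was lower here, with 147, 126 and 142 counts in SP Etv2-positive cells against 280, 202 and 254 in SP Etv2-negative cells. The log2 fold change of Hoxd1 was -0.75 ± 0.23 (edgeR adjusted p = 0.0279, and up to 0.107 without 1 library). Hoxa13, Hoxb6, Hoxb7 and Hoxb9 were not called but passed with 1 library left out: Hoxa13 without SP Etv2-positive replicate 1, Hoxb6 and Hoxb7 without DP Etv2-positive replicate 3, and Hoxb6 and Hoxb9 without DP Etv2-negative replicate 3, at edgeR adjusted p values as low as 0.0467, 0.0131, 0.0369 and 0.0441 in the order first named.

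Several of these SP calls rest on SP Etv2-positive replicate 3. Without that library 3 members were called, and with 1 library left out the edgeR adjusted p reached 0.0702 for Hoxb4 and 0.0677 for Hoxb8. The Hoxb4 call was also lost without SP Etv2-negative replicate 1 or 2. The Hoxd1 call was lost without SP Etv2-negative replicate 1 or 3, or SP Etv2-positive replicate 2 or 3. The same library carried the largest share of its counts on mitochondrial and ribosomal RNA genes in the reporter set, 4.21%, and SP Etv2-negative replicate 2 the next, 3.88%, against 2.36 to 3.26% in the others. Without these 2 libraries 0 members were called higher and 2 lower. SP libraries of the same number also pair, but the replicate block spans both gates, where the lowest same-number correlations missed the 0.1 minimum. With that block 7 were called higher and 2 lower. Hoxb3 (edgeR adjusted p = 0.00369, against 0.0676 without the block), Hoxb6 (0.00433, against 0.0658) and Hoxb7 (0.0342, against 0.1004) were added. Replicate 3 had the highest CPM of its group in 4 of 4 reporter groups for Hoxb4, Hoxb5 and Hoxb8, in 3 of 4 for Hoxb6 and Hoxb7 and in 2 of 4 for Hoxb9.

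The next comparison asks whether the effect of the Etv2 reporter differs between the gates. Taking the SP effect minus the DP effect, 1 member was called higher, where 1.52% of all genes were, and 1 lower, where 2.45% were. The members' median log2 difference was -0.16 and that of all genes -0.01. Hoxd1 went up with the reporter in DP and down in SP, and this difference of -1.53 ± 0.33 on the log2 scale was called (edgeR adjusted p = 0.0304). Hoxb1 was lower with the reporter in both gates, by less in SP, a difference of 0.57 ± 0.15 that just passed (edgeR adjusted p = 0.0499). Both calls were lost without any one of several libraries: the adjusted p reached 0.0884 for Hoxd1 and 0.112 for Hoxb1, and 0 members were called without DP Etv2-negative replicate 1 or 2, DP Etv2-positive replicate 3, SP Etv2-negative replicate 1 or 3, or SP Etv2-positive replicate 2 or 3. The Hoxb1 call was also lost without SP Etv2-negative replicate 2 or SP Etv2-positive replicate 1. It was lost as well under upper-quartile scaling and without mitochondrial and ribosomal RNA genes. Without DP Etv2-negative replicate 3 there were 4 members called, Hoxb6 among them. For the central Hoxb genes the difference between gates was not called, with -0.18 ± 0.51 for Hoxb4, -0.87 ± 0.75 for Hoxb5, -1.002 ± 0.68 for Hoxb6, -1.91 ± 0.73 for Hoxb7 and -0.28 ± 0.71 for Hoxb8 on the log2 scale, errors too wide to show that the gates act alike. That of Hoxb7 was the largest of these (edgeR adjusted p = 0.163) and was called without the low-count filter.

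**Figure D3:**
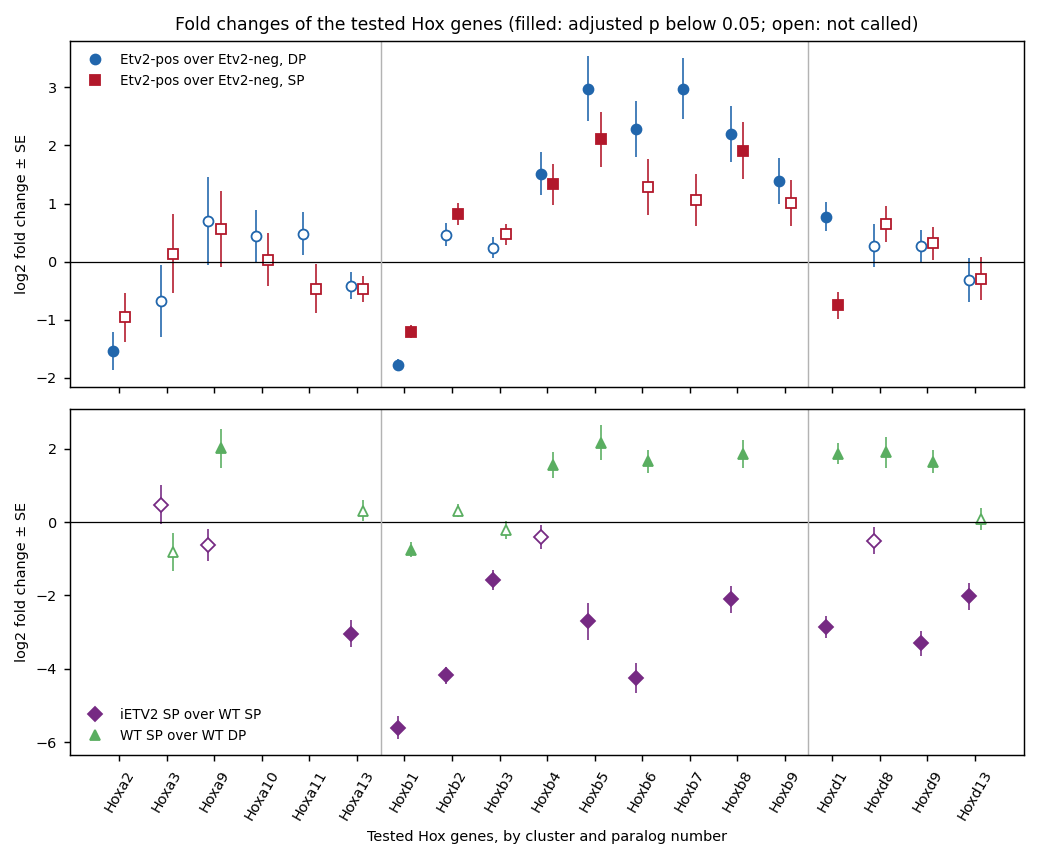
Log2 fold change ± SE of 19 tested Hox genes in the upper panel and 14 in the lower, by cluster and paralog number. The upper panel has Etv2-positive over Etv2-negative cells in DP (circles) and SP (squares), and the lower panel iETV2 SP over WT SP cells (diamonds) and WT SP over WT DP cells (triangles). Filled symbols passed an adjusted p of 0.05 in edgeR, and within Hoxb the upper panel runs below 0 at Hoxb1 and above 0 from Hoxb2 to Hoxb9, while 10 of 14 diamonds are filled and below 0.

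Between the gates the question is how loss of PDGFRalpha goes with Hox RNA. In Etv2-negative cells 2 of 20 tested members were called higher in SP than in DP, where 6.1% of all genes were, and 2 lower, where 4.84% were. Their median log2 fold change was 0.13, and that of all genes 0.00. Hoxb1 had 598, 602 and 560 counts in SP Etv2-negative cells and 940, 985 and 974 in DP Etv2-negative cells, a log2 fold change of -0.72 ± 0.10 (edgeR adjusted p = 0.000864). Hoxd1 had 280, 202 and 254 counts in SP Etv2-negative against 54, 74 and 129 in DP Etv2-negative cells, a log2 fold change of 1.53 ± 0.24 (edgeR adjusted p = 0.00174). Both sets of counts were apart, and both calls held with any 1 library left out.

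Hoxa2 was lower, at 7 to 11 counts in SP Etv2-negative and 16 to 25 in DP Etv2-negative libraries, by a log2 fold change of -1.25 ± 0.32 (edgeR adjusted p = 0.0247). Its call was lost without any 1 of the DP Etv2-negative libraries or without SP Etv2-negative replicate 1 or 2, at adjusted p up to 0.0926. Without DP Etv2-negative replicate 1 or 2, or SP Etv2-negative replicate 1, 2 members were left called. The replicate block gave 5 called higher and 2 lower. It added Hoxb4, Hoxb5 and Hoxb7, at edgeR adjusted p values of 0.0168, 0.00238 and 0.0483.

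In Etv2-positive cells 0 of 20 tested members were called between SP and DP, where 6.95% of all genes were called higher and 6.94% lower. At an unadjusted p under 0.05 there were 3, and DESeq2 also called 0. The replicate block, however, gave 4 called higher and 0 lower. These were Hoxb2, Hoxb4, Hoxb5 and Hoxd8, at edgeR adjusted p values of 0.0173, 0.0493, 0.0406 and 0.0402. The median log2 fold change was -0.04 for the members and -0.01 for all genes. Hoxb1 had 227, 234 and 263 counts in SP Etv2-positive and 281, 277 and 266 in DP Etv2-positive cells, with overlap in CPM and a log2 fold change of -0.15 ± 0.11 (edgeR adjusted p = 0.402). Hoxd1 had 147, 126 and 142 counts in SP Etv2-positive and 155, 126 and 145 in DP Etv2-positive cells, and its log2 fold change was 0.01 ± 0.23 (edgeR adjusted p = 0.990). The 4 reporter comparisons share libraries, so their fold changes are not independent of each other.

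The WT line gave the gate comparison without a reporter. SP cells had more of 8 of the 15 tested members than DP cells, where 9.08% of 16288 genes tested were higher, and less of 1, where 6.76% were lower. The median log2 fold change was 1.55 for these members and -0.01 for all genes. By position, 5 of 5 tested central, 2 of 4 posterior and 1 of 6 anterior genes were higher, and 1 anterior gene was lower. Members that passed the filter were kept only if high enough in some of these groups, so the median says nothing of the 24 others. Markers of other cell types moved with this comparison: 5 of 6 endothelial markers were higher, summing to 48.5 to 80.6 CPM in WT SP and 7.94 to 17.0 CPM in WT DP libraries, and 4 of 4 tested blood markers were higher, at 60.2 to 88.2 CPM in WT SP and 20.4 to 22.4 CPM in WT DP libraries, with Ptprc at 0 in both. Cardiac markers were higher for 3 of 5, at 27.4 to 36.6 CPM in WT SP and 14.3 to 20.6 CPM in WT DP libraries. Paraxial mesoderm markers were lower for 2 of 5, at 15.7 to 19.1 CPM in WT SP and 45.7 to 63.0 CPM in WT DP libraries. Their part in the Hox differences was not tested.

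Hoxb5 had 71, 27 and 25 counts in WT SP and 11, 11 and 4 in WT DP cells, a log2 fold change of 2.17 ± 0.49 (edgeR adjusted p = 0.0124, and 0.0524 without WT DP replicate 3). Without WT SP replicate 1, the library with most Hoxb5, its log2 fold change was 1.53. WT SP replicate 1 and WT DP replicate 3 had the largest shares on mitochondrial and ribosomal RNA genes in this set, 4.12% and 4.06%. They were not left out together. Hoxb8 had 36, 25 and 16 counts in WT SP and 8, 8 and 4 in WT DP cells, a log2 fold change of 1.86 ± 0.38 (edgeR adjusted p = 0.00724). Hoxb6 had 92, 63 and 61 counts in WT SP and 27, 29 and 10 in WT DP cells, a log2 fold change of 1.65 ± 0.32 (edgeR adjusted p = 0.00569). No SP library of these 3 genes fell to the level of a DP library.

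In the Hoxd cluster the difference ran along the tested genes. Hoxd1 had 159, 145 and 141 counts in WT SP and 40, 51 and 26 in WT DP cells, a log2 fold change of 1.87 ± 0.29 (edgeR adjusted p = 0.00153). Hoxd8 had 61, 47 and 29 counts in WT SP and 17, 15 and 3 in WT DP cells, a log2 fold change of 1.90 ± 0.42 (edgeR adjusted p = 0.0112). Hoxd9, a posterior gene of trunk and limb, had 111, 76 and 81 counts in WT SP and 28, 39 and 15 in WT DP cells, a log2 fold change of 1.65 ± 0.30 (edgeR adjusted p = 0.00430). Hoxd13, the last gene of the cluster, was not called, at 20, 15 and 15 counts in WT SP and 16, 14 and 15 in WT DP cells.

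Hoxb1 went the other way, with 481, 508 and 504 counts in WT SP and 963, 834 and 636 in WT DP cells. Its log2 fold change was -0.75 ± 0.21 (edgeR adjusted p = 0.0317). This call was lost without WT DP replicate 1 or 2 or any 1 of the WT SP libraries, at adjusted p up to 0.102. Hoxb4 and Hoxa9 were the other members called higher, with log2 fold changes of 1.55 ± 0.36 and 2.01 ± 0.54. The Hoxb4 call was lost without WT DP replicate 3 or WT SP replicate 1 (edgeR adjusted p up to 0.0642), and that of Hoxa9 without WT DP replicate 2 or 3 or any 1 of the WT SP libraries (up to 0.0990).

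The last comparison asks what forced Etv2 goes with in SP cells, and Hox RNA was lower in iETV2 SP than in WT SP cells over much of the clusters. All 39 genes together averaged 12.3 ± 2.59 CPM in iETV2 SP and 59.4 ± 6.18 CPM in WT SP cells (SD, n = 3 each). Of the 15 tested members 11 were called lower, where 24.4% of 16288 genes were, and 0 higher, where 26.4% were. At an unadjusted p under 0.05 there were the same number, 11. DESeq2, which gave 30 members an adjusted p, called 14, and the 3 added were not among the 15 tested in edgeR. Without the low-count filter edgeR called 17 members, and Hoxa5 was the only one called higher (log2 fold change 1.36, edgeR adjusted p = 0.0358). It had 14, 7 and 24 counts in iETV2 SP and 5, 7 and 4 in WT SP cells, so the lowest iETV2 library equalled the highest WT library. The median log2 fold change was -2.11 for these members and 0.00 for all genes. Members were kept only if high enough in some of the 3 groups. Some passed through the WT groups, such as Hoxb6 with 3 to 5 counts in iETV2 SP cells. The count and the median of the tested members therefore say nothing of the 24 others. Lower calls fell on 5 of 6 anterior, 3 of 5 central and 3 of 4 posterior genes, and all 11 calls held with any 1 library left out.

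Hoxb1 had 4, 22 and 7 counts in iETV2 SP cells, against 481, 508 and 504 in WT SP cells. Replicate 2 of iETV2 was highest of its group and still far below every WT library, and the log2 fold change was -5.60 ± 0.32, a 48.6-fold lower level (edgeR adjusted p = 2.95e-07). Without that iETV2 library it was -6.60. Hoxb6 had 5, 3 and 4 counts in iETV2 SP and 92, 63 and 61 in WT SP cells, a log2 fold change of -4.24 ± 0.41 (edgeR adjusted p = 1.21e-05). Hoxb2 had 8, 6 and 11 counts in iETV2 SP and 158, 130 and 134 in WT SP cells, a log2 fold change of -4.18 ± 0.23 (edgeR adjusted p = 2.50e-07). With 3 to 5 counts, the iETV2 level of Hoxb6 lay at or near the floor of 3 counts.

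Posterior genes fell too. Hoxd9 had 12, 9 and 8 counts in iETV2 SP and 111, 76 and 81 in WT SP cells, a log2 fold change of -3.31 ± 0.35 (edgeR adjusted p = 2.15e-05). Hoxa13, used in the hindgut, the distal limb and the allantois, had 8, 4 and 3 counts in iETV2 SP and 40, 36 and 41 in WT SP cells, a log2 fold change of -3.05 ± 0.37 (edgeR adjusted p = 5.37e-05). Hoxa11 was not tested in this set and had 0, 0 and 0 counts in iETV2 SP and 5, 5 and 4 in WT SP cells, and 35% of its exon bases lie opposite an antisense gene.

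The first gene of Hoxd was also lower. Hoxd1 had 14, 34 and 18 counts in iETV2 SP and 159, 145 and 141 in WT SP cells, a log2 fold change of -2.86 ± 0.31 (edgeR adjusted p = 2.52e-05). Also called lower were Hoxb5, Hoxb8, Hoxd13 and Hoxb3, at log2 fold changes of -2.71, -2.11, -2.03 and -1.58. That of Hoxb5 was -2.06 without WT SP replicate 1.

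The other 4 tested members were not called. Hoxb4 had 95, 60 and 76 counts in iETV2 SP and 152, 70 and 62 in WT SP cells, which overlap, at a log2 fold change of -0.41 ± 0.33 (edgeR adjusted p = 0.334). Hoxd8 had 34, 37 and 33 counts in iETV2 SP and 61, 47 and 29 in WT SP cells, at a log2 fold change of -0.50 ± 0.37 (edgeR adjusted p = 0.277). Hoxa3 and Hoxa9 had log2 fold changes of 0.47 ± 0.53 and -0.62 ± 0.44. These fell outside the rule for genes given in full and were chosen after their values were seen.

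Summed by position, the Hox RNA shifted between classes. Central genes came to 20.3 to 45.3 CPM in DP Etv2-positive libraries and 4.51 to 13.7 CPM in DP Etv2-negative libraries, and to 21.4 to 41.5 CPM in SP Etv2-positive and 8.48 to 13.1 CPM in SP Etv2-negative libraries. Neither pair of groups overlapped. The central genes called with the reporter were all in Hoxb. Anterior genes came to 37.2 to 41.5 CPM in DP Etv2-positive and 46.3 to 60.6 CPM in DP Etv2-negative libraries. Posterior sums were close, at means of 7.44 ± 0.743 CPM in DP Etv2-positive and 6.37 ± 2.03 CPM in DP Etv2-negative cells (SD, n = 3 each). In iETV2 SP cells the anterior sum averaged 4.62 ± 0.817 CPM, against 39.02 ± 1.66 CPM in WT SP cells, and the central sum 6.03 ± 0.961 CPM against 12.4 ± 4.38 CPM (SD, n = 3 each). Anterior genes made up 36.0 to 41.1% of the Hox CPM in iETV2 SP and 60.6 to 69.5% in WT SP libraries. These sums are a description and were not tested.

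**Figure D4:**
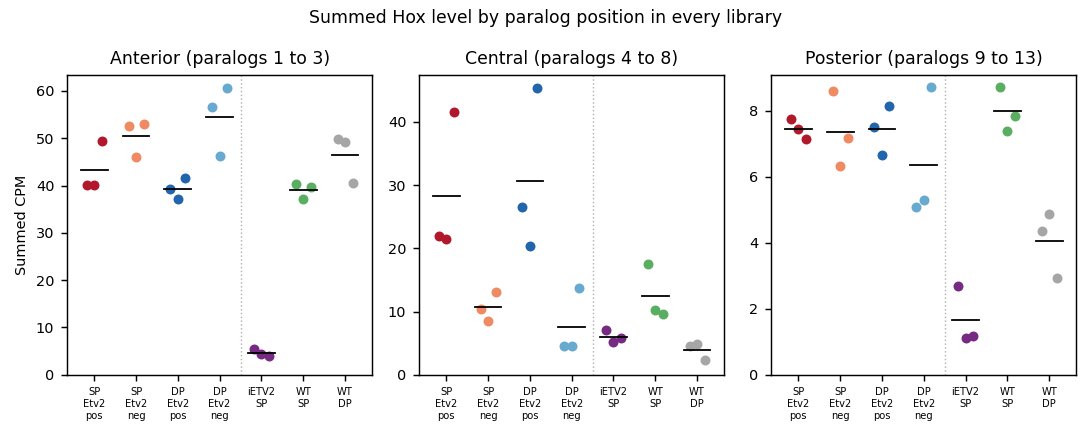
Summed CPM of the anterior, central and posterior Hox genes in every library (dots, replicates 1 to 3 from left to right; bar at the mean), with a dotted line between the reporter set and the second set. The lowest central sum of an Etv2-positive reporter library is 20.3 CPM and the highest of an Etv2-negative one 13.7 CPM, and within the second set the anterior and posterior sums are lowest in iETV2 SP cells.

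Noncoding genes of the clusters were mostly too low to test, 3 of 15 in the reporter set and 2 of 15 in the second. Haglr, a noncoding gene beside Hoxd1, averaged 4.34 ± 1.44 CPM in DP Etv2-positive and 1.70 ± 0.576 CPM in DP Etv2-negative cells, and 3.39 ± 0.967 CPM in SP Etv2-positive and 4.51 ± 0.764 CPM in SP Etv2-negative cells (SD, n = 3 each). Like Hoxd1 it was called higher with the reporter in DP (log2 fold change 1.35 ± 0.29, edgeR adjusted p = 0.00350) and called in the difference between gates (-1.76 ± 0.40, edgeR adjusted p = 0.0337). It was also higher in WT SP than in WT DP cells (log2 fold change 1.07 ± 0.26, edgeR adjusted p = 0.0175) and lower in iETV2 SP than in WT SP cells (-3.56 ± 0.32, edgeR adjusted p = 6.91e-06). Hoxb3os averaged 0.117 ± 0.118 CPM in iETV2 SP and 2.90 ± 0.509 CPM in WT SP cells (SD, n = 3 each), a log2 fold change of -4.52 ± 0.50 (edgeR adjusted p = 2.84e-05).

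None of the 3 Cdx factors was called higher where the central Hoxb genes were higher with the reporter. Of all genes tested, 16% were higher and 14.7% lower with the reporter in DP, and 13.1% higher and 12.4% lower in SP. In iETV2 SP over WT SP cells 24.4% of all genes were lower. With the reporter in DP, 0 of 3 were higher and 2 lower: Cdx1 by a log2 fold change of -1.90 ± 0.47 (edgeR adjusted p = 0.00816) and Cdx4 by -0.84 ± 0.24 (edgeR adjusted p = 0.0162). In SP 1 was lower, Cdx4, at 2.49 ± 0.207 CPM in SP Etv2-positive and 7.74 ± 1.09 CPM in SP Etv2-negative cells (SD, n = 3 each). With the replicate block Cdx1 was called lower there too (edgeR adjusted p = 0.0409, against 0.183 without the block; log2 fold change -0.91 ± 0.48 without it), which makes 2 of 3. Cdx4 was higher in SP than in DP cells both without the reporter (log2 fold change 1.13 ± 0.21, edgeR adjusted p = 0.00537) and in WT (1.22 ± 0.30, edgeR adjusted p = 0.0175). In iETV2 SP cells Cdx4 averaged 0.0254 ± 0.0440 CPM and Cdx2 1.86 ± 0.669 CPM, against 3.93 ± 0.689 and 11.6 ± 1.32 CPM in WT SP cells (SD, n = 3 each), with both called lower.

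Of the 9 Pbx, Meis and Pknox cofactors, none was called higher with the reporter, and 4 were lower in DP and 3 in SP. The share of all genes that were lower was 14.7% in DP and 12.4% in SP. Meis2 averaged 34.4 ± 4.98 CPM in DP Etv2-positive and 65.2 ± 3.71 CPM in DP Etv2-negative cells (SD, n = 3 each; log2 fold change -0.92 ± 0.10, edgeR adjusted p = 2.63e-05). Meis1 had a log2 fold change of -0.88 ± 0.24 in that comparison and was also called lower. Between the gates 0 were higher and 5 lower in SP than in DP cells without the reporter, 2 lower with it, and 5 lower in WT. Over all genes the lower share was 4.84%, 6.94% and 6.76% in that order. In iETV2 SP over WT SP cells 4 were lower and 1, Pbx4, was higher (log2 fold change 2.03 ± 0.34, edgeR adjusted p = 0.000510). There 24.4% of all genes were lower and 26.4% higher. Evx1, a homeobox gene at the posterior end of Hoxa, averaged 68.4 ± 22.0 CPM in DP Etv2-positive and 141 ± 23.5 CPM in DP Etv2-negative cells, and 29.6 ± 16.7 CPM in iETV2 SP and 142 ± 34.2 CPM in WT SP cells (SD, n = 3 each), called lower in both. The ParaHox gene Pdx1 was the only one of 3 tested, in the second set, and was higher in iETV2 SP cells at 0.747 ± 0.0848 CPM, against 0.218 ± 0.144 CPM in WT SP cells (SD, n = 3 each).

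Of 11 Polycomb and Trithorax genes, which hold Hox clusters shut or open, 4 were lower with the reporter in DP and 1 in SP. Among all genes 14.7% were lower in DP and 12.4% in SP. Cbx2, a Polycomb subunit, was lower in both, by log2 fold changes of -0.56 ± 0.05 and -0.29 ± 0.05 (edgeR adjusted p = 4.57e-06 and 0.000959). In iETV2 SP over WT SP cells 5 were lower and 1 higher, which was Cbx7 (log2 fold change 1.78 ± 0.17, edgeR adjusted p = 9.11e-06). In that comparison 24.4% of all genes were lower and 26.4% higher.

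Markers of other cell types moved with the Hox genes. Among all genes tested, 16% were higher and 14.7% lower with the reporter in DP, and 13.1% higher and 12.4% lower in SP. In DP Etv2-positive over DP Etv2-negative cells 4 of 5 paraxial mesoderm markers were lower and 1 higher, and their sum was 8.31 to 9.85 CPM in DP Etv2-positive and 32.7 to 36.3 CPM in DP Etv2-negative libraries. Pluripotency markers were lower for 2 of 4, summing to 31.1 to 54.9 CPM in DP Etv2-positive and 135 to 195 CPM in DP Etv2-negative libraries. Cardiac markers were higher for 4 of 5, at 40.5 to 44.8 CPM in DP Etv2-positive and 16.1 to 21.7 CPM in DP Etv2-negative libraries, and endothelial markers for 4 of 5 tested, at 13.6 to 27.5 CPM in DP Etv2-positive and 4.01 to 8.68 CPM in DP Etv2-negative libraries, with Emcn at 0 in the negative cells. With the replicate block the pluripotency markers called lower came to 3 of 4 and the endothelial markers called higher to 5 of 5. In SP Etv2-positive cells 5 of 5 tested endothelial and 5 of 5 tested blood markers were higher. The endothelial sum was 42.9 to 87.4 CPM in SP Etv2-positive and 14.3 to 20.1 CPM in SP Etv2-negative libraries. Cardiac markers were higher there for 3 of 5, and pluripotency markers lower for 3 of 4. Paraxial markers were higher for 1 of 5 and lower for 2. Lateral plate and extraembryonic markers were lower for 3 of 5 in SP, and higher for 2 of 5 with the reporter in DP.

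In iETV2 SP cells 5 of 5 lateral plate and extraembryonic markers were lower, at 39.5 to 85.5 CPM, against 774 to 876 CPM in WT SP cells, while 6 of 6 endothelial markers were higher, at 788 to 1216 CPM in iETV2 SP, against 48.5 to 80.6 CPM in WT SP libraries. Pluripotency markers were higher for 4 of 4, at 230 to 257 CPM in iETV2 SP and 43.6 to 71.7 CPM in WT SP libraries. Blood markers were higher for 1 of 4 tested and lower for 3, with Ptprc at 0 in WT SP cells. Over all genes 26.4% were higher and 24.4% lower in iETV2 SP than in WT SP cells. Fibroblast markers, listed because the stem cells had been kept on feeders, were higher for 2 of 6 and lower for 2, with Col1a1 at 6.18 ± 2.05 CPM in iETV2 SP and 207 ± 34.1 CPM in WT SP cells (SD, n = 3 each). In DP Etv2-positive over DP Etv2-negative cells that list was higher for 3 of 6, led by Postn and Col1a1, and lower for Fn1. The part that these cell types had in the Hox differences was not tested.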

How the data were processed

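RNA was measured by stranded total RNA sequencing of 21 libraries in 7 groups. Raw counts for Ensembl genes were deposited by the authors, as a table for the 12 reporter-line libraries and a file each for the 9 others. Per the submitters' processing notes, featureCounts and mm10 were used; aligner, annotation, version and strand setting are not given in the sources used here. The 9 files also hold 4 summary entries of the kind STAR writes, which were left out. Of 55487 IDs, 55227 were named from GENCODE M21 and 260 were not.

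Each set was fitted alone with edgeR 4.0.16 in R 4.3.3 (TMM, filterByExpr, quasi-likelihood, two-sided, Benjamini-Hochberg over all genes, call at adjusted p below 0.05), after the script had been tested on simulated data. SE is the log2 fold change over the root of F. Counts per library are given for called members of at least 0.5 CPM, up to 6 higher and 6 lower, and for the first gene of each cluster. Values of 1 member and 1 cofactor that this rule names are not reported here, and counts include both. Members, lists and tests were chosen with earlier results of these data known. Replicate numbers paired libraries where every same-number correlation was over 0.1: 0.175 to 0.342 for the reporter in DP, 0.143 to 0.268 in SP. The block was fitted over all libraries of a set, so it spans both gates of the reporter set. Alternatives were RLE and upper-quartile scaling, other filters, DESeq2 1.42.0, fits with the replicate block or without the groups not compared, removal of mitochondrial and ribosomal RNA genes, and libraries left out. Floors cover counting error only.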

Additional observations from a re-analysis of the deposited data

Results flagged for a closer look

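The effect of the Etv2 reporter was called different between the gates for 2 Hox genes, by a test of the difference itself. Of these 2 calls, 0 held under every setting. For Hoxd1 the SP effect minus the DP effect was -1.53 ± 0.33 on the log2 scale (SE, edgeR adjusted p = 0.0304), with log2 fold changes of -0.75 in SP and 0.77 in DP. For Hoxb1 it was 0.57 ± 0.15 (edgeR adjusted p = 0.0499), with log2 fold changes of -1.21 in SP and -1.78 in DP. With a library left out, the difference ran from -1.94 to -1.34 for Hoxd1 and from 0.47 to 0.65 for Hoxb1. The adjusted p then reached 0.0884 and 0.112 in that order, so both calls were lost without some single libraries.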

How the results depend on the processing

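Without the low-count filter the members called were 11 for the reporter in SP, 7 and 3 for the gates without and with the reporter, 5 for the difference between gates and 17 in iETV2 over WT, of which Hoxa5 was higher and the others lower, against 6, 4, 0, 2 and 11. The reporter in SP gave 10 when fitted on its own groups alone. Leaving out both libraries with a high share on mitochondrial and ribosomal RNA genes gave 2 there and 0 for the difference between gates. That difference had 1 under upper-quartile scaling and 1 without mitochondrial and ribosomal RNA genes. With the replicate block the gates without and with the reporter gave 7 and 4. Same-number correlations there were 0.0962 to 0.334 and 0.0767 to 0.269, so the minimum of 0.1 was missed. Different-number correlations were lower, at -0.263 to 0.0502 and -0.184 to 0.0662. The WT gates also missed the minimum, at 0.0916 to 0.342 for the same number and -0.367 to 0.0879 for different numbers. There 9 were called with the block and 9 without. In iETV2 over WT same-number correlations were -0.0763 to 0.166 and different-number ones -0.222 to 0.208, with 11 called with the block and 11 without. With a library left out the counts ran from 7 to 12 and 3 to 8 for the reporter in DP and SP, 2 to 4 and 0 to 0 for the gates, 0 to 4 for their difference, 6 to 10 in WT and 11 to 12 in iETV2 over WT. With anterior genes taken as paralogs 1 to 4, central as 5 to 9 and posterior as 10 to 13, the anterior sums were 45.3 (DP Etv2-positive), 51.3 (SP Etv2-positive), 7.86 (iETV2 SP) and 43.1 CPM (WT SP), and the central sum of iETV2 SP was 3.82 CPM. The posterior sums were then 3.73 (DP Etv2-positive), 3.82 (DP Etv2-negative), 3.96 (SP Etv2-positive), 4.83 (SP Etv2-negative), 0.631 (iETV2 SP), 3.28 (WT SP) and 2.40 CPM (WT DP). No log2 fold change of a called member changed sign. Of 1470 single-gene values with a library left out, 1404 stayed as they were, called or not called. Another 11 gained a call and 55 lost one. Calls that held under every setting where tested were 7 of 10 for the reporter in DP and 1 of 6 in SP. They were 2 of 4 for the gates without the reporter, 0 of 2 for the difference between gates, 5 of 9 in WT and 11 of 11 in iETV2 over WT. The cause of these changes was not tested, apart from the fewer libraries or genes that some alternatives use. Depth limits the Hoxc genes and other members near 3 counts.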
